A study of Arabidopsis thaliana with 6 samples.

Results

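The genes described here encode RALF-like peptides, and they were chosen as the array's probe sets whose only gene has a symbol that begins with RALF or RALFL in the platform annotation. The rule found 11 genes, each with 1 probe set, among 22746 probe sets tested. The RefSeq gene table lists 34 RALF and RALFL genes, so 23 were not analysed here. None of the 11 probe sets carries the mark that the platform gives to sets with probes shared between genes. The arrays compared the cax1cax3 double mutant of Arabidopsis thaliana (3 arrays) with the wild type (3 arrays), both in the Columbia-0 ecotype. Every plant was raised on plates with 0.5% sucrose for 10 days and then in soil for 3 weeks, in 16 hours of light and at 22 °C, and the labels give an age of 40 days. Plants were collected whole, at the time when necrotic lesions had begun on the mutant. CAX1 and CAX3 encode calcium/proton exchangers of the vacuolar membrane. The labels name no alleles, and no probe set of 1 gene was named for a CAX gene. Probe sets with several genes or without a name were not searched for them, so the genotypes were not checked from the mutated genes.

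RALF peptides (rapid alkalinization factors) are small secreted proteins rich in cysteine. Many are cut from a longer precursor by the subtilase S1P, and they bind receptor kinases of the FERONIA family together with LORELEI-like co-receptors. In the cell wall they also bind leucine-rich repeat extensins and pectin. The binding changes calcium, apoplastic pH and wall expansion, and different members act in roots, in immunity and in the growth of pollen tubes through the pistil.

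Levels are given on the log2 scale, 1 value per probe set and array. A level is compared only with the same probe set on other arrays, since probe sets differ in brightness. Background was judged from 27 control probe sets for Bacillus subtilis transcripts, whose median was 4.04 and whose 95th percentile was 4.70. That percentile is called the bacterial level. Array medians lay between 7.03 and 7.08. The first principal component (52.5% of the variance) separated the genotypes, and the second (28.1%) set both arrays numbered 3 apart from the rest. Results that rest on those arrays are given with and without them. A gene is called lower or higher when limma's moderated test gave an adjusted p under 0.05, adjusted by Benjamini-Hochberg across the 22746 probe sets. The labels do not say whether the 3 samples of a genotype were grown apart. The p-values therefore cover only the variation seen among these arrays, part or all of which may be technical.

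RALFL24 and RALFL26 fell in cax1cax3, by 1.82-fold and 2.30-fold. RALFL25 was also called lower, but its mutant arrays were at background, so that its wild-type mean set against the bacterial level gives a fall of at least 1.40-fold. None of the other 8 members was called. In whole plants, less RNA per cell and fewer cells of a type cannot be told apart. The members were chosen with earlier results of these data known. The counts, shares and median that follow therefore only describe them and do not test the family. By limma 3 of 11 members were called lower, where 3.28% of all probe sets were. In the other direction 0 of 11 were called higher, where 2.34% of all probe sets were. At an unadjusted p under 0.05 the number with a positive change was also 0, where 8.93% of all probe sets reached that p upwards. Without cax1cax3 array 1 or 2, or without wild-type array 1 or 2, 1 member was called lower, RALFL24. The median change of the 11 members was -0.40, beside 0.01 for all probe sets tested, and 8 members had a negative change, as did 47.5% of all probe sets. The arrays of cax1cax3 lay wholly below those of the wild type for 5 members, where 13.0% of all probe sets did so. With the replicate number as a block, 3 of 11 members were also called lower, where 5.15% of all probe sets were. They were RALFL24, RALFL25 and RALFL34, and 0 were called higher, where 4.63% of all probe sets were. Without both arrays numbered 3, the 3 called members were RALFL24, RALFL25 and RALFL26, where 4.50% of all probe sets were called lower.

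**Figure D1:**
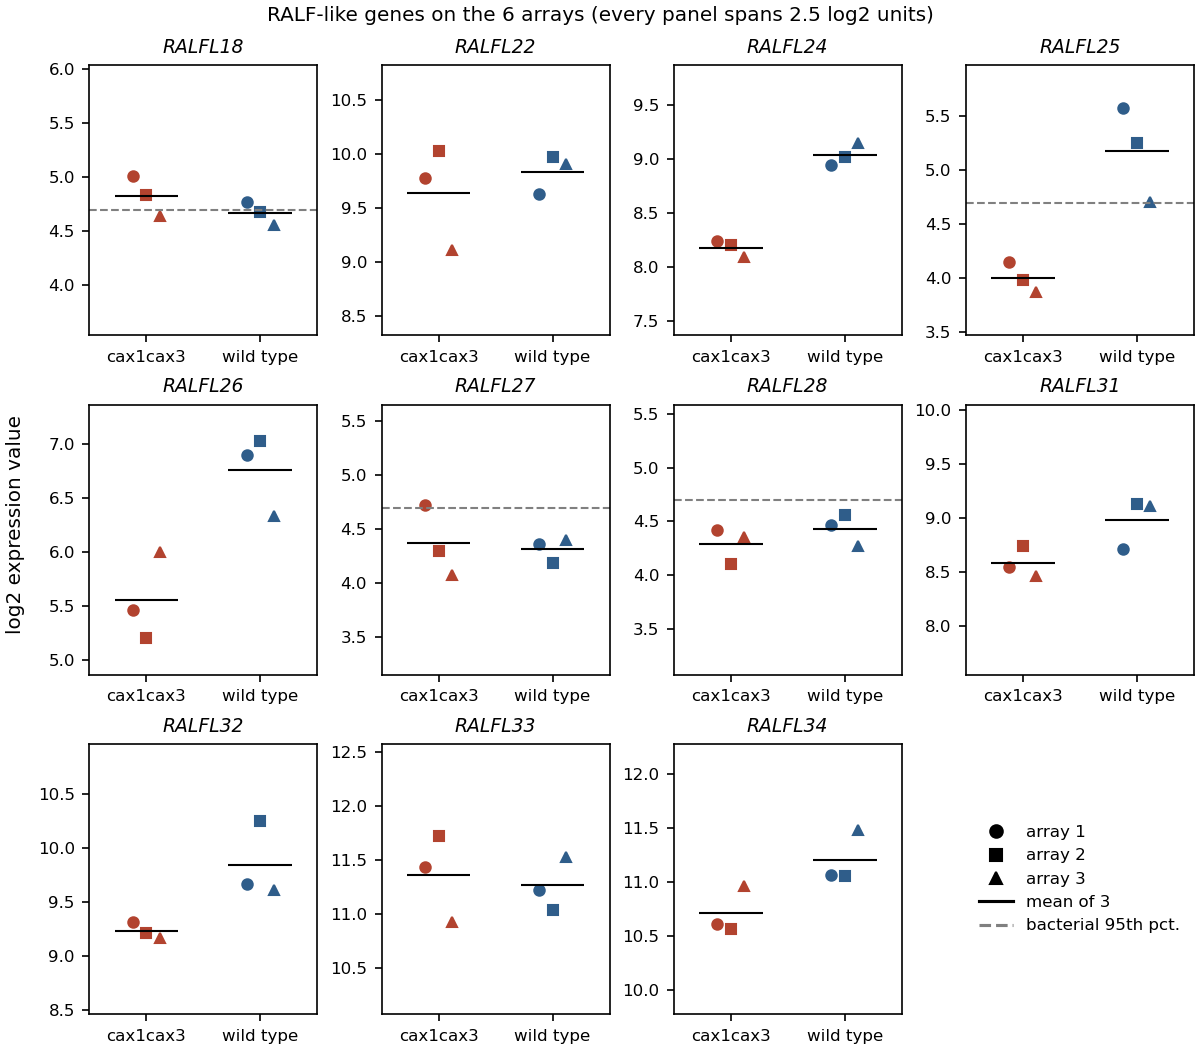
Log2 expression value (vertical axis) of each of the 11 RALF-like genes on the 3 cax1cax3 arrays (red, left) and the 3 wild-type arrays (blue, right), with the array number as the symbol and the mean as a line. The dashed line is the bacterial level of 4.70. In RALFL24, RALFL25, RALFL26, RALFL32 and RALFL34 every cax1cax3 array lies below every wild-type array.

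Above the bacterial level lay 8 members by their mean over the 6 arrays: RALFL18, RALFL22, RALFL24, RALFL26, RALFL31, RALFL32, RALFL33 and RALFL34. RALFL25, RALFL27 and RALFL28 had means at or under it. Closest to the level were RALFL18 with a mean of 4.75 and RALFL25 with a mean of 4.59. One bacterial probe set stood above the others, at 5.20 to 5.81, and RALFL18 is the member that would drop out if the highest bacterial value were used, which leaves 7.

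RALFL25 and RALFL26 encode peptides of pollen that take part in the exchange between pollen and stigma. They are next to each other in the genome, with no other protein-coding gene between them in the RefSeq table. RALFL26 had 5.46, 5.20 and 6.0 on the cax1cax3 arrays 1 to 3, against 6.91, 7.03 and 6.34 on the wild-type arrays 1 to 3. The groups did not overlap, and they came closest on the arrays numbered 3, where the mutant was highest and the wild type lowest. The fall was 1.20 ± 0.26 log2 units (difference ± SE, 95% interval -1.82 to -0.59, limma adjusted p = 0.0471). With the replicate block it was no longer called (adjusted p = 0.0689). Without both arrays numbered 3 the change was -1.64 (adjusted p = 0.00480).

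RALFL25 had 4.15, 3.98 and 3.87 on the cax1cax3 arrays, against 5.57, 5.25 and 4.71 on the wild-type arrays. All 3 mutant values lay under the bacterial level, and wild-type array 3 lay only just above the bacterial level. The difference of -1.18 ± 0.22 log2 units (95% interval -1.70 to -0.66, limma adjusted p = 0.0307) is therefore one between a low signal in the wild type and background in the mutant. Values this close to background are compressed on the log2 scale. With the replicate block the adjusted p was 0.0156, and without both arrays numbered 3 it was 0.00908 with a change of -1.35. On the other side of RALFL25 the neighbouring gene AT3G25160 had 4.65 ± 0.18 in cax1cax3 and 4.82 ± 0.08 in the wild type (SD, n = 3 each) and was not called (limma adjusted p = 0.518).

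RALFL24 was the member with the smallest p. It had 8.24, 8.20 and 8.09 on the cax1cax3 arrays, against 8.95, 9.02 and 9.15 on the wild-type arrays. The arrays spanned 0.15 log2 units in cax1cax3 and 0.20 in the wild type, and the groups did not overlap. The fall was 0.86 ± 0.10 log2 units (95% interval -1.10 to -0.62, limma adjusted p = 0.00845), which placed it 188th of 22746 probe sets by p. When each array was dropped in turn, RALFL24 was called in 6 of 6 fits, and its highest adjusted p was 0.0470 in the fit lacking wild-type array 2. The call held with the array number as a block (adjusted p = 0.0165) and without both arrays numbered 3 (-0.76, adjusted p = 0.0167).

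The calls of RALFL25 and RALFL26 were not stable to the loss of an array. Lower calls over all probe sets also moved, from 147 without cax1cax3 array 2 to 947 without cax1cax3 array 3, against 747 with all 6 arrays. RALFL25 was called in 1 of 6 such fits, the one without wild-type array 3, and its adjusted p went up to 0.127 without cax1cax3 array 2. RALFL26 was called in 2 of 6, those without wild-type array 3 or cax1cax3 array 3, and its adjusted p went up to 0.163 without wild-type array 2. The size of the differences moved less, between -1.41 and -0.98 for RALFL25 and between -1.43 and -1.03 for RALFL26.

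**Figure D2:**
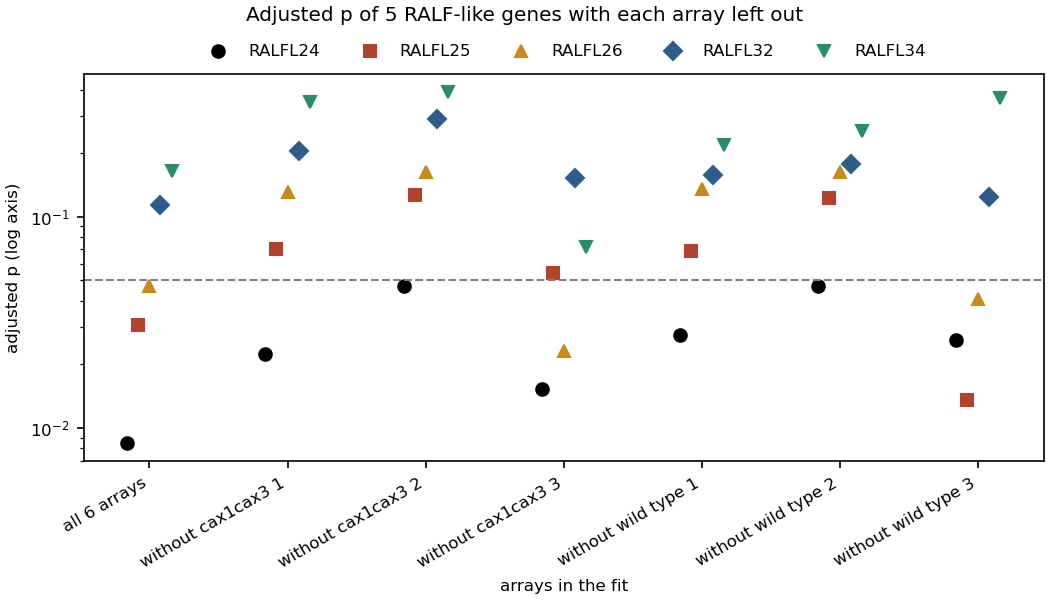
Adjusted p (vertical log axis) of 5 RALF-like genes in the fit of all 6 arrays and in the fits that leave out the array named on the horizontal axis. The dashed line is 0.05. RALFL24 stays under it in all 7 fits, while RALFL25 and RALFL26 cross it and RALFL32 and RALFL34 stay above it.

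RALFL34 encodes a ligand of the receptor kinase THESEUS1 that acts in the early divisions of lateral roots. It had 10.61, 10.57 and 10.96 on the cax1cax3 arrays, against 11.07, 11.06 and 11.49 on the wild-type arrays. The groups did not overlap, and in both genotypes array 3 was the highest by about the same step. The differences within the numbers 1, 2 and 3 were -0.46, -0.49 and -0.52. The change of -0.49 ± 0.17 was not called without the block (limma adjusted p = 0.164) and was called with it (-0.49 ± 0.08, adjusted p = 0.0311).

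RALFL32 had 9.31, 9.21 and 9.17 on the cax1cax3 arrays, against 9.67, 10.25 and 9.61 on the wild-type arrays. The groups did not overlap, but wild-type array 2 stood 0.59 above the next value and widened the spread. The change was -0.61 ± 0.18 (95% interval -1.04 to -0.18, limma adjusted p = 0.114). RALFL31 had 8.55, 8.75 and 8.47 on the cax1cax3 arrays, against 8.72, 9.14 and 9.11 on the wild-type arrays. Here the groups overlapped, through cax1cax3 array 2 and wild-type array 1, and the change of -0.40 ± 0.15 was not called (limma adjusted p = 0.198).

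**Figure D3:**
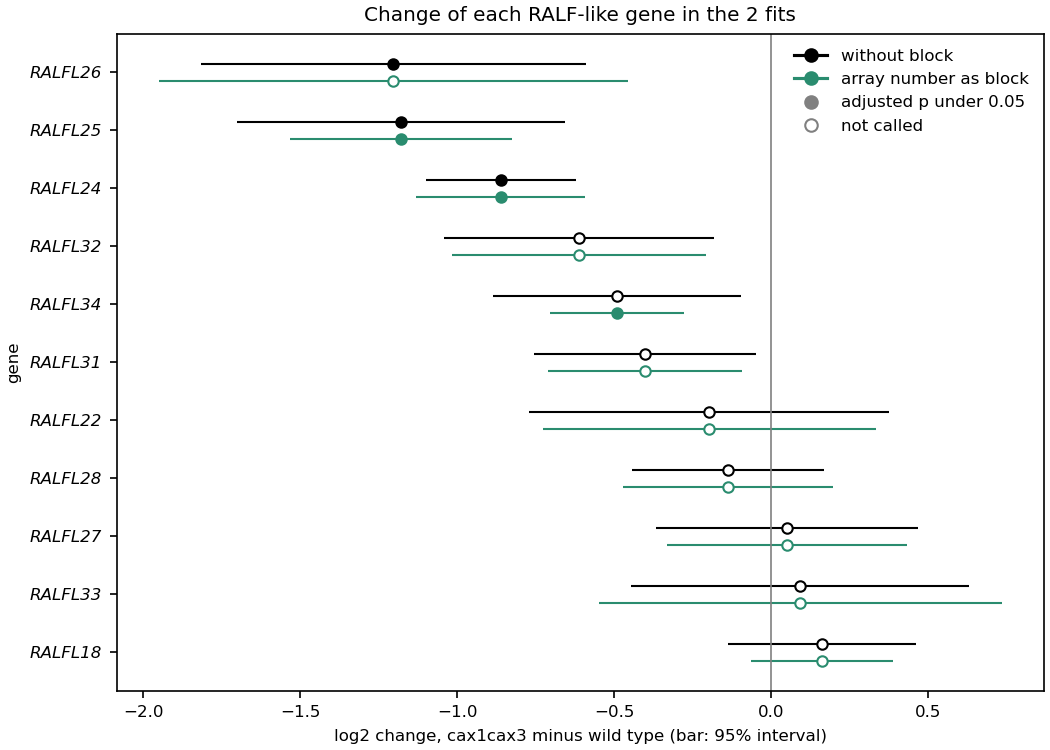
Log2 change, cax1cax3 minus wild type (horizontal axis), of each RALF-like gene with its 95% interval, without a block (black) and with the array number as a block (green). Filled points have an adjusted p under 0.05. RALFL24 and RALFL25 are filled in both fits, RALFL26 only without the block and RALFL34 only with it.

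RALFL22 and RALFL33 encode peptides that signal through FERONIA, RALFL22 in wall integrity under salt and RALFL33 in immunity, and both also act at the stigma. Neither was called. RALFL33 had 11.43, 11.72 and 10.92 on the cax1cax3 arrays, against 11.23, 11.04 and 11.53 on the wild-type arrays. The groups overlapped because the order of the genotypes turned round on the arrays numbered 3, and the change was 0.09 ± 0.23 (95% interval -0.45 to 0.63, limma adjusted p = 0.884). RALFL22 had 9.78, 10.04 and 9.12 on the cax1cax3 arrays, against 9.63, 9.97 and 9.92 on the wild-type arrays. Its lowest value was again cax1cax3 array 3, and the change was -0.20 ± 0.24 (95% interval -0.77 to 0.38, limma adjusted p = 0.737). Without both arrays numbered 3 the changes were 0.44 for RALFL33 (adjusted p = 0.133) and 0.11 for RALFL22 (adjusted p = 0.783), so neither was called and the sign of RALFL22 turned.

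**Figure D4:**
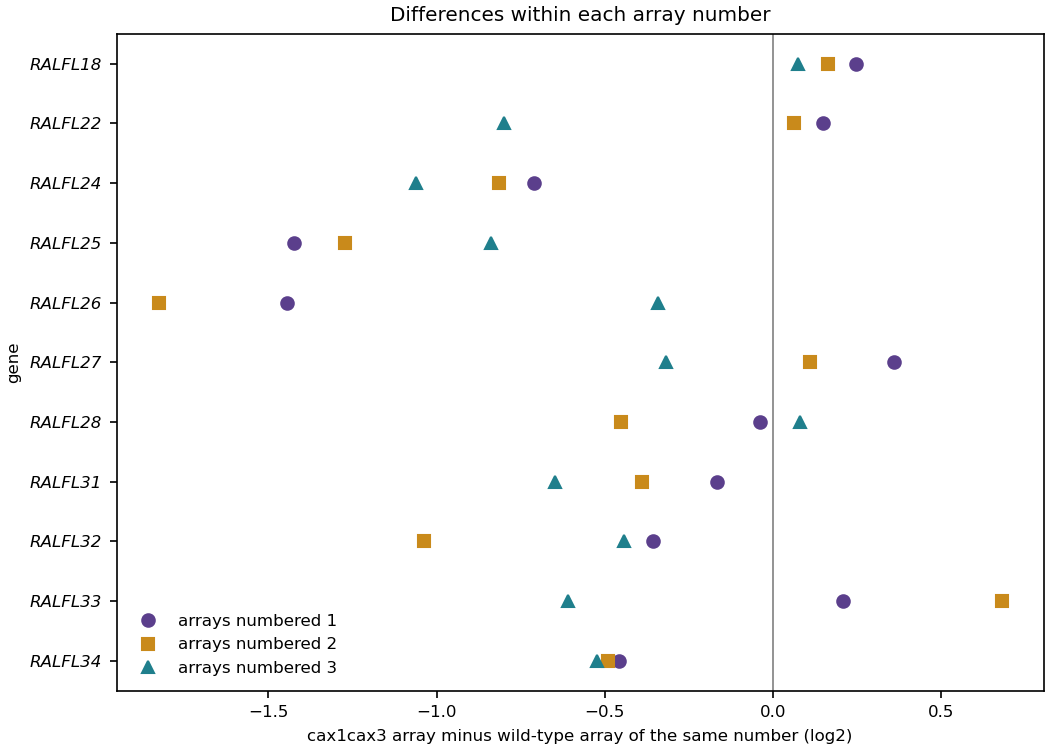
Difference between the cax1cax3 array and the wild-type array of the same number (horizontal axis, log2) for each RALF-like gene. RALFL24, RALFL25, RALFL26, RALFL31, RALFL32 and RALFL34 are below 0 in all 3 numbers, and RALFL22, RALFL27 and RALFL33 are below 0 only in number 3.

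Across the 11 members the median difference within the numbers 1, 2 and 3 was -0.17, -0.45 and -0.52. In 6 members the mutant array was the lower one in each of the 3 numbers. The share of all probe sets with that pattern was not counted, so the 6 only describes these members. RALFL18 was the member with a higher mutant array in each number, by 0.25, 0.16 and 0.07. RALFL26 had the widest range of such differences, -1.44, -1.83 and -0.34, and RALFL34 the narrowest.

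The remaining members gave little signal. RALFL18 had 5.01, 4.84 and 4.64 on the cax1cax3 arrays, against 4.77, 4.67 and 4.56 on the wild-type arrays, so both groups lay across the bacterial level (change 0.16 ± 0.13, limma adjusted p = 0.563). RALFL28 had 4.43, 4.11 and 4.36 on the cax1cax3 arrays, against 4.46, 4.56 and 4.28 on the wild-type arrays. RALFL27 had 4.73, 4.3 and 4.08 on the cax1cax3 arrays, against 4.37, 4.19 and 4.40 on the wild-type arrays. In both genes the groups overlapped around background, with changes of -0.14 and 0.05 (limma adjusted p = 0.642 and 0.924). No difference was detectable in them at such signal.

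The peptides' receptors and partners were read from a list of 46 genes, of which 22 were measured by a probe set of their own. By limma 0 were called lower and 0 higher, where 3.28% and 2.34% of all probe sets were, and at an unadjusted p under 0.05 the numbers were 1 and 2, where 10.6% and 8.93% of all probe sets were. With the replicate block 0 were called in either direction. The median change was 0.09, and 9 changes were negative and 13 positive. The annotation gives a symbol to 6 of the 22, which are named here for that reason after their values were seen, and a locus tag to the other 16. Those loci were placed in the list from background knowledge.

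FER encodes FERONIA, the receptor kinase of RALF1. It had 11.02, 10.94 and 10.69 on the cax1cax3 arrays, against 10.85, 10.84 and 10.57 on the wild-type arrays. The groups overlapped, and the interval of the change (0.13, -0.19 to 0.45) leaves out a rise or fall as large as the fall of RALFL24. THE1 encodes THESEUS1, which monitors the state of the wall. It had 9.70, 9.46 and 8.20 on the cax1cax3 arrays, against 9.17, 8.68 and 8.94 on the wild-type arrays. Cax1cax3 array 3 was the lowest of all 6, as it was for RALFL22 and RALFL33, and the change was 0.19 ± 0.38 (limma adjusted p = 0.853) with all arrays and 0.66 (adjusted p = 0.101) without both arrays numbered 3.

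ANX1 and ANX2 encode the ANXUR receptor kinases of the pollen tube. Both lay at background in each genotype, with means of 4.42 and 4.15 in cax1cax3 and 4.56 and 4.29 in the wild type. S1P, the site-1 protease that cuts RALF precursors, had 7.69 ± 0.22 in cax1cax3 and 7.50 ± 0.07 in the wild type (SD, n = 3 each, limma adjusted p = 0.503), and its change was the largest among the 3 measured genes of the processing and downstream group. RAPTOR1, a TOR complex subunit that FERONIA binds, had 8.45 ± 0.23 in cax1cax3 and 8.49 ± 0.07 in the wild type (SD, n = 3 each, limma adjusted p = 0.926).

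**Figure D5:**
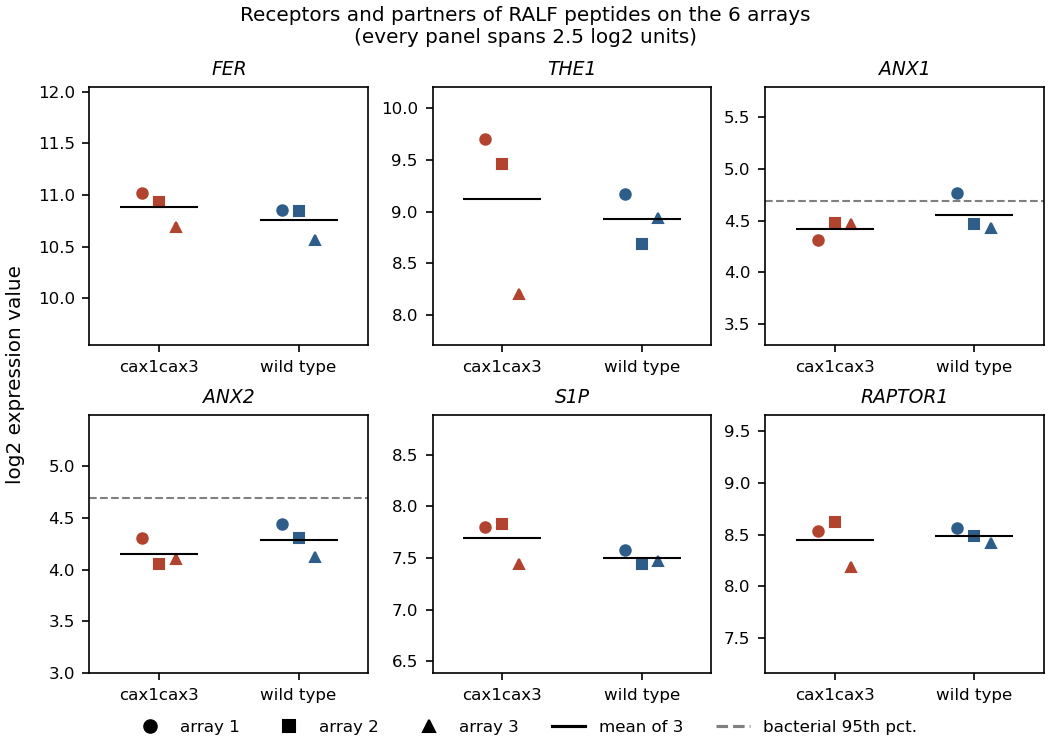
Log2 expression value (vertical axis) of the 6 receptor and partner genes that the annotation names by symbol, on the 3 cax1cax3 arrays (red, left) and the 3 wild-type arrays (blue, right), with the array number as the symbol and the mean as a line. The groups overlap in all 6 genes, and ANX1 and ANX2 lie around or under the bacterial level of 4.70.

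Among the 11 measured genes of the receptor kinase group, AT5G39020 had the largest change. It had 6.57, 6.96 and 6.31 on the cax1cax3 arrays, against 6.06, 6.11 and 5.99 on the wild-type arrays, and the groups did not overlap (0.56 ± 0.17, limma adjusted p = 0.120). AT2G39360 had a change of 0.52 ± 0.15 (adjusted p = 0.110), also without overlap. Without cax1cax3 array 3 both were called higher (adjusted p = 0.0394 for AT5G39020 and 0.0457 for AT2G39360), where 797 of 22746 probe sets were. Without both arrays numbered 3 AT2G39360 was called higher (adjusted p = 0.0391), where 4.28% of all probe sets were. Of the whole list, 1 gene had mutant arrays wholly below and 2 had mutant arrays wholly above those of the wild type, where 13.0% and 11.6% of all probe sets did so. The gene below was the receptor kinase AT4G39110, with 4.55, 4.34 and 4.47 on the cax1cax3 arrays, against 5.16, 4.81 and 4.59 on the wild-type arrays. Its mutant arrays and wild-type array 3 lay under the bacterial level, and it was not called (-0.40 ± 0.16, limma adjusted p = 0.224). The 8 measured loci of the leucine-rich repeat extensin group had changes from -0.25 to 0.25, the largest in AT2G15880 (0.25 ± 0.46), and 4 of them lay at background in both genotypes. None of the 4 LORELEI-like genes was matched to a probe set of its own.

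Since whole plants mix organs, organ markers are given beside the falls of RALFL25 and RALFL26. Of 26 pollen markers 6 were measured. Of these, 1 was called lower, where 3.28% of all probe sets were, and 2 with the replicate block, where 5.15% were. Called higher were 0, where 2.34% of all probe sets were. At an unadjusted p under 0.05 with a positive change the number was 0, where 8.93% of all probe sets were. The mean level over the list lay between 5.77 and 5.93 on the cax1cax3 arrays and between 5.92 and 6.03 on the wild-type arrays. The called one was TUB9, a beta-tubulin gene (-0.52 ± 0.09, limma adjusted p = 0.0249), which was not called without both arrays numbered 3 (adjusted p = 0.0585) and was called in 1 of 6 fits without a single array (adjusted p up to 0.102, without cax1cax3 array 2). SHT, a gene of spermidine conjugates in the pollen coat that the tapetum expresses, was the second one called with the block (adjusted p = 0.0412). It had 4.69, 4.48 and 4.41 on the cax1cax3 arrays, against 5.07, 4.95 and 4.89 on the wild-type arrays. The groups did not overlap, as in RALFL25 and RALFL26, and all 3 mutant values were under the bacterial level (-0.44 ± 0.11, limma adjusted p = 0.0791 without the block). The other 4 are genes of pollen or the male gamete. AGL66 and AGL104 lay at background in both genotypes, AGL65 had 6.01 ± 0.04 in cax1cax3 and 5.98 ± 0.03 in the wild type, and MGH3 had 4.93 ± 0.18 in cax1cax3 and 4.84 ± 0.13 in the wild type (SD, n = 3 each).

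The measured markers of the tapetum, the layer that feeds pollen, were ATA27 and AMS, 2 of 16, with a list mean of 4.45 to 4.60 on the cax1cax3 arrays and 5.88 to 6.37 on the wild-type arrays. ATA27, a beta-glucosidase gene, had 4.79, 4.65 and 4.86 on the cax1cax3 arrays, against 7.82, 8.07 and 7.40 on the wild-type arrays (limma adjusted p = 0.00209). AMS had means at background in both genotypes and was not called, so 1 of 2 was called lower, where 3.28% of all probe sets were. Both measured markers of seeds and siliques, of 19, fell and were called lower, where 3.28% of all probe sets were. Their list mean was 4.93 to 5.34 on the cax1cax3 arrays and 6.64 to 8.20 on the wild-type arrays. DELTA-VPE, a processing enzyme gene of the seed coat, had 4.94, 4.69 and 5.58 on the cax1cax3 arrays, against 9.76, 10.17 and 7.64 on the wild-type arrays (adjusted p = 0.0182). BAN, of seed coat tannin synthesis, had 4.92, 5.17 and 5.10 on the cax1cax3 arrays, against 6.46, 6.22 and 5.64 on the wild-type arrays (adjusted p = 0.0401). With single arrays left out, DELTA-VPE was called in 2 of 6 fits (adjusted p up to 0.0929, without cax1cax3 array 2) and BAN in 1 of 6 (up to 0.150, without wild-type array 2), while ATA27 was called in 6 of 6. In DELTA-VPE and BAN, as in RALFL25 and RALFL26, wild-type array 3 was the lowest of the wild type. It was also the lowest in ATA27, AMS, SHT, MGH3, AGL65, AGL66, AGL104 and the root genes EXPA7 and EXPA18. In TUB9 and the leaf genes LHCB4.3, PRK and RCA it was the highest. The wild-type arrays spanned 2.53 log2 units in DELTA-VPE and 0.82 in BAN, but 0.07 in AGL65 and 0.09 in EXPA7. AMS, AGL66 and AGL104 lay at background, so the order of their arrays says little. Whether the trait is particular to an organ was not tested.

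Neither of the 2 measured root markers of 14 was called, where 3.28% of all probe sets were called lower and 2.34% higher. At an unadjusted p under 0.05 the number was 0, where 10.6% of all probe sets were lower and 8.93% higher. EXPA18, an expansin gene of root hairs, had the larger change (0.14 ± 0.09, limma adjusted p = 0.469), beside EXPA7 (0.06 ± 0.12), and the list mean was 4.93 to 5.16 on the cax1cax3 arrays and 4.93 to 5.01 on the wild-type arrays. Of 12 leaf markers 3 were measured, with a list mean of 11.5 to 11.7 on the cax1cax3 arrays and 12.1 to 12.4 on the wild-type arrays. The light-harvesting gene LHCB4.3 fell by 1.18 ± 0.20 (adjusted p = 0.0237, up to 0.107 without cax1cax3 array 2), and RCA and PRK were not called. The part of organ shares in the falls of the RALF-like genes was not tested.

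The genes whose values followed RALFL24 most closely over the 6 arrays were AT1G16860 (Pearson r = 0.998), AT3G49220 (r = 0.996) and ACLA-1 (r = 0.996), an ATP-citrate lyase gene. For RALFL26 they were SWEET7 (r = 0.986), AT1G78170 (r = 0.984) and SP1L2 (r = 0.984). They were picked as the 3 highest of 10110 named probe sets above the bacterial level, over arrays that fall into a mutant and a wild-type group, and the values only describe likeness. SWEET7, a sugar transporter gene, had 4.53, 4.46 and 4.88 on the cax1cax3 arrays, against 5.15, 5.19 and 4.89 on the wild-type arrays. As in RALFL26 the genotypes came closest on the arrays numbered 3, which picking by likeness to RALFL26 favours. SWEET7 was not called (limma adjusted p = 0.157), and its cax1cax3 arrays 1 and 2 lay under the bacterial level.

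Other secreted signalling peptides were looked for among probe sets of 1 gene by the symbols CLE, CLV3, EPF, EPFL, IDA, IDL, PSK, RGF, GLV, CEP, PIP and PROPEP. That search gave 6 CLE genes and CLV3, of the CLAVATA3 family, and it does not cover probe sets without a name or with several genes. Of these 7, limma called 1 lower and 0 higher (0 at an unadjusted p under 0.05 with a positive change), where 3.28% and 2.34% of all probe sets were, and the median change was -0.19. Without both arrays numbered 3 the number called lower was 2, where 4.50% of all probe sets were. The called one was CLE26, a root-acting CLE gene, with 5.71, 5.64 and 5.94 on the cax1cax3 arrays, against 6.24, 6.29 and 6.36 on the wild-type arrays (-0.53 ± 0.11, adjusted p = 0.0450, and up to 0.161 without cax1cax3 array 2). Without both arrays numbered 3 its adjusted p was 0.0328. CLE44, a gene of the phloem peptide that holds back xylem formation, was the other one called there (-0.54, adjusted p = 0.0453), and it was also called without cax1cax3 array 3 (adjusted p = 0.0488). With all arrays its groups overlapped, with 7.02, 6.99 and 7.63 on the cax1cax3 arrays, against 7.48, 7.61 and 7.88 on the wild-type arrays (-0.44 ± 0.20, adjusted p = 0.299). No difference between the RALF-like and the CLE genes was tested.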

How the data were processed

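Each sample was total RNA from whole plants, biotin-labelled and run on 1 Affymetrix array, per the labels' protocols. The authors deposited 1 log2 value per probe set and array. The submitters' processing notes name GCOS version 1.1.2 and RMA without their roles. The settings of both are not given in the sources used here. That the deposited values are log2 was taken from their range (3.35 to 14.5 for the probe sets tested), and no normalization was added. Of 22810 probe sets, 64 controls were left out. The platform annotation, brought up to date with RefSeq gene names (TAIR10.1), gave 1 gene to 13513 probe sets, several to 503 and none to 8730. RALFL22 had no match by gene number and kept its symbol.

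limma 3.58.1 in R 4.3.3 (lmFit and eBayes) compared 3 cax1cax3 with 3 wild-type arrays over all 22746 probe sets, without covariates, and differences are cax1cax3 minus wild type. Deviations from the genotype mean correlated between same-numbered arrays (r of 0.43, 0.29 and 0.47 across probe sets for the numbers 1, 2 and 3). Between arrays of different numbers r ran from -0.41 to 0.12. The numbers were therefore taken to pair the arrays, on the evidence of the data, and a fit with the number as a block was run beside the unblocked one. Deviations from a mean cancel out within a genotype, so a shift shared by the arrays numbered 3 can shape all these values. The evidence that numbers 1 and 2 pair is therefore weaker. Other alternatives were quantile or median normalization, array weights, a trended robust variance, filters on dim probe sets and each array left out. Leaving out both arrays numbered 3 was added after seeing the data. A simulation used each probe set's own spread, with noise drawn apart for each array. In it the fit found 68.0% of 97 changes of 1 log2 unit and 89.3% of 103 changes of 2 log2 units. It made 5 false calls among those of the 22746 probe sets that were given no change. Deviations shared by same-numbered arrays were not simulated, so these rates may not hold for the real arrays.

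The named genes were all members, every called receptor or partner and otherwise the largest change in each of its groups, up to 4 called markers of an organ (or the largest change), and the 3 genes most like each called member above the bacterial level. The remaining measured markers, AT2G39360, AT4G39110, CLE26 and CLE44 were named outside that rule, after their values were seen. The members and lists were chosen with earlier results of these data known, and the locus tags of the partner list were added after the annotation was seen. The symbol PIP also met the rule for secreted peptides, and it was left out because RefSeq gives it as proline iminopeptidase. For arrays, their number limits the precision.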

Additional observations from a re-analysis of the deposited data

How the results depend on the processing

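The median change of the 11 RALF-like genes stayed negative under every alternative run, from -0.54 without wild-type array 1 to -0.28 without both arrays numbered 3. The number of members called lower was 3 with the replicate block, quantile normalization, a common median, a trended robust variance and a filter to a higher group above the bacterial level. It ranged from 1 to 3 with single arrays left out, and it was 1 without cax1cax3 array 1 or 2 or wild-type array 1 or 2. In those fits, in that order, 469, 147, 371 and 165 of 22746 probe sets were called lower. Array weights added RALFL34 (adjusted p = 0.0486), in a fit that called 1560 of all 22746 probe sets lower, against 747 in the main fit. Leaving out the dimmest probe sets removed RALFL25 from the test. The block ended the call of RALFL26, added RALFL34 and changed no other call among the RALF-like genes, receptors and partners. It raised all lower calls to 1171, against 747 without it. No member was called higher under any alternative run. Receptors and partners called higher numbered 2 with array weights, where 1286 of 22746 probe sets were called higher, against 532 in the main fit. They numbered 1 without both arrays numbered 3, where 973 probe sets were called higher. With single arrays left out they numbered 0 to 2. The 2 came without cax1cax3 array 3, where 797 probe sets were called higher. The cause of these changes was not tested. The members above the bacterial level numbered 7 to 11 under the other definitions. Signals near background limit RALFL18, RALFL25, RALFL27 and RALFL28.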
